A study of Mus musculus with 2 samples.

Results

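The genes described here are 10 genes of cytokine signalling in double-positive (DP) thymocytes. These cells express CD4 and CD8 and make up most of the thymus in normal mice. In the *Cxxc1*-deficient mice of the study, thymocytes without CD4 and CD8 were the larger share. The 10 genes were taken from the deposited table by their symbols, and all 10 are among its 21041 genes. The list holds the receptor chains *Il2rg*, *Il4ra*, *Il7r*, *Il6ra* and *Il2rb*, the kinases *Jak1* and *Jak3*, the transcription factor gene *Stat5b*, and the inhibitors *Socs1* and *Socs3*. RNA was measured in 2 mRNA-seq libraries, 1 of WT and 1 of *Cxxc1*-deficient DP thymocytes. In the study, the WT mice are *Cxxc1* fl/fl, so they also carry the floxed allele, and the deficient mice add h*CD2*-Cre, which removes exons 4 and 5 of *Cxxc1* in early thymocytes and in other immune cells too. The sample title of the deficient library reads KO, whereas its genotype label reads *Cxxc1*+/-, and it was grouped by title. The mice of the study were 3 to 4 weeks old unless stated otherwise, and how many were used for each library is not given in the sources used here.

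Cytokines bind paired receptor chains at the cell surface. The chains hold Janus kinases (JAKs), which phosphorylate STAT proteins, and STATs then move to the nucleus and switch on target genes that include *Socs* genes. SOCS proteins bind the receptors or the JAKs and shut the signal down. Thymocytes depend on interleukin-7 before the DP stage, lose its receptor and respond poorly to cytokines as DP cells, with *Socs1* as a known brake, and regain the receptor after positive selection.

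The deposited values are normalized expression values per gene, rounded to whole numbers. Their steps in short genes showed that they are scaled to transcript length, so levels of different genes can be set side by side. Their sums were 1551994 (WT) and 981677 (*Cxxc1*-deficient), with a median of 36 in each library, and stood for about 1404008 and 724449 reads. Olfactory receptor genes, which thymocytes do not use, served as the measure of silent genes. Their 1122 members had a median of 22 (WT) and 24 (*Cxxc1*-deficient), and their 95th percentile was 54 and 57. A gene above that percentile in a library is called above the silent-gene level there, which held for 29.9% (WT) and 19.1% (*Cxxc1*-deficient) of all genes. Expression of 12 DP markers was read in both libraries. *Rag1*, *Cd4* and *Cd8a* had 20778, 2728 and 3503 in WT and 5058, 1257 and 507 in *Cxxc1*-deficient cells, and 12 of the 12 markers in WT and 11 in *Cxxc1*-deficient cells were above the silent-gene level. As deposited, all 12 were lower in *Cxxc1*-deficient cells and 10 at least 2-fold lower. Of all genes above that level in at least 1 library, 88.6% were lower and 35.6% at least 2-fold lower. These values do not give the share of DP cells in a library. The targeted gene, *Cxxc1*, had 91 (WT) and 50 (*Cxxc1*-deficient), the second value within the range of silent genes, and the ratio of 0.549 had an interval of 0.338 to 0.877. This value takes in all exons, so it cannot show the deletion of exons 4 and 5 itself. In the study, qPCR found almost no *Cxxc1* mRNA in deficient DP cells, and a western blot showed loss of the protein. Genes of the Y chromosome were above 0 for 0 of 15 genes in WT and 7 of 15 in *Cxxc1*-deficient cells, and the labels do not give the sex of the mice. With 1 library per genotype there is no replicate check and no test. Intervals are 95% Clopper-Pearson intervals from approximate reads. They hold counting error alone and compare a pair of libraries, not genotypes. Intervals of single ratios are on the deposited scale. Another scaling of the libraries shifts them, so whether one holds 1 can change. Less RNA per cell and a different mixture of cells cannot be told apart in these bulk samples.

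As deposited, 6 of the 10 genes were above the silent-gene level, the same 6 in both libraries, namely *Il2rg*, *Jak1*, *Il4ra*, *Stat5b*, *Socs1* and *Socs3*. The other 4, *Il7r*, *Il2rb*, *Il6ra* and *Jak3*, lay within the range of silent genes in both. *Il2rg* was the most abundant in each library and *Jak1* the next. In WT the order below them was *Il4ra*, *Stat5b*, *Socs1* and *Socs3*, in which neighbours had overlapping intervals. In *Cxxc1*-deficient cells *Socs3* came next, before *Socs1*, *Stat5b* and *Il4ra*, and neighbours in that order again had overlapping intervals.

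**Figure D1:**
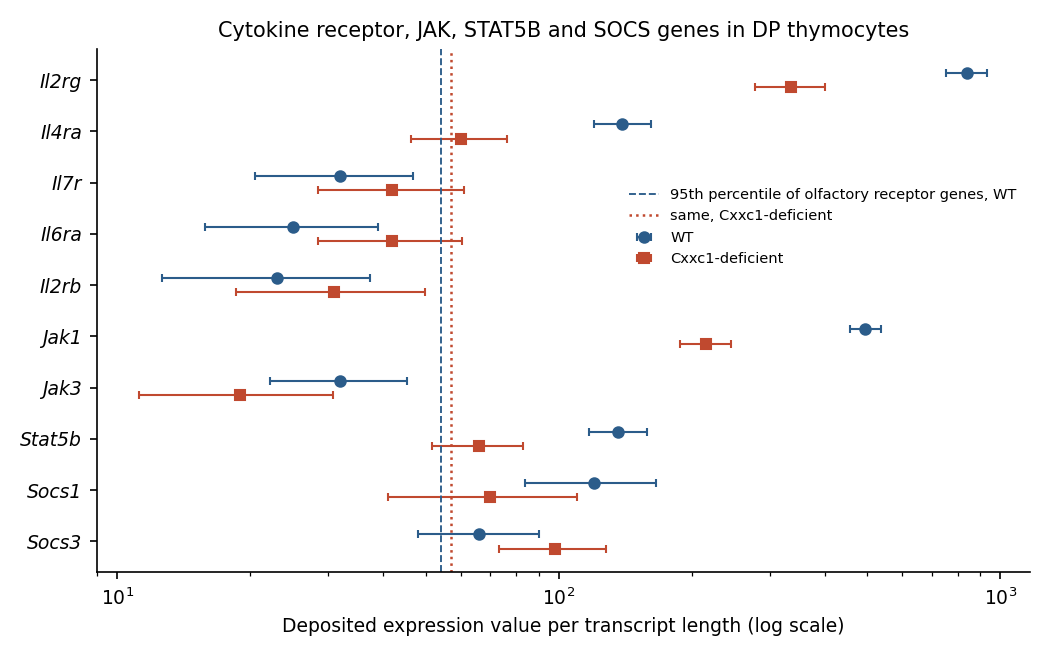
Deposited expression values of the 10 genes in the WT (circles) and *Cxxc1*-deficient (squares) DP thymocyte library, on a log axis, with 95% Poisson intervals of the approximate reads behind each value; the vertical lines mark the 95th percentile of olfactory receptor genes in each library. *Il2rg* and *Jak1* stand far above the lines in both libraries, *Il4ra* and *Stat5b* come down to values of 60 and 66 close to them, and *Il7r*, *Il6ra*, *Il2rb* and *Jak3* stay to their left.

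As deposited, 6 of the 10 genes had a lower value in *Cxxc1*-deficient cells, as did 59.9% of all 20125 genes above 0 in at least 1 library, and 4 had a higher value, as did 37.2%. A value at least 2-fold lower was found for 4, namely *Il2rg*, *Il4ra*, *Jak1* and *Stat5b*, and for 17.4% of all genes. These 4 also had intervals wholly below 1, which held for 22.1% of the genes with a known length, whereas no interval of the 10 was wholly above 1, against 2.55%. None of the 10 was at least 2-fold higher, against 5.89% of all genes. On the log2 scale, the median of the ratios (*Cxxc1*-deficient over WT) was -0.77 over the 10 genes and -0.20 over all genes. The ratio depended on the level of a gene across the whole table, so each gene was also set beside genes of its own band of mean value. The share at least 2-fold lower was 6.31% of genes with a mean from 20 to 50, 20% from 50 to 100, 50.1% from 100 to 200, 65.9% from 200 to 500 and 84.1% from 500 on. The share with a higher value was 48.6%, 16.1%, 5.17%, 3.84% and 3.66% in the same bands. The 4 genes at least 2-fold lower had means from 99.5 to 588. Such ratios were frequent in the bands of *Stat5b*, *Jak1* and *Il2rg* and less so, at 20%, in that of *Il4ra*.

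**Figure D2:**
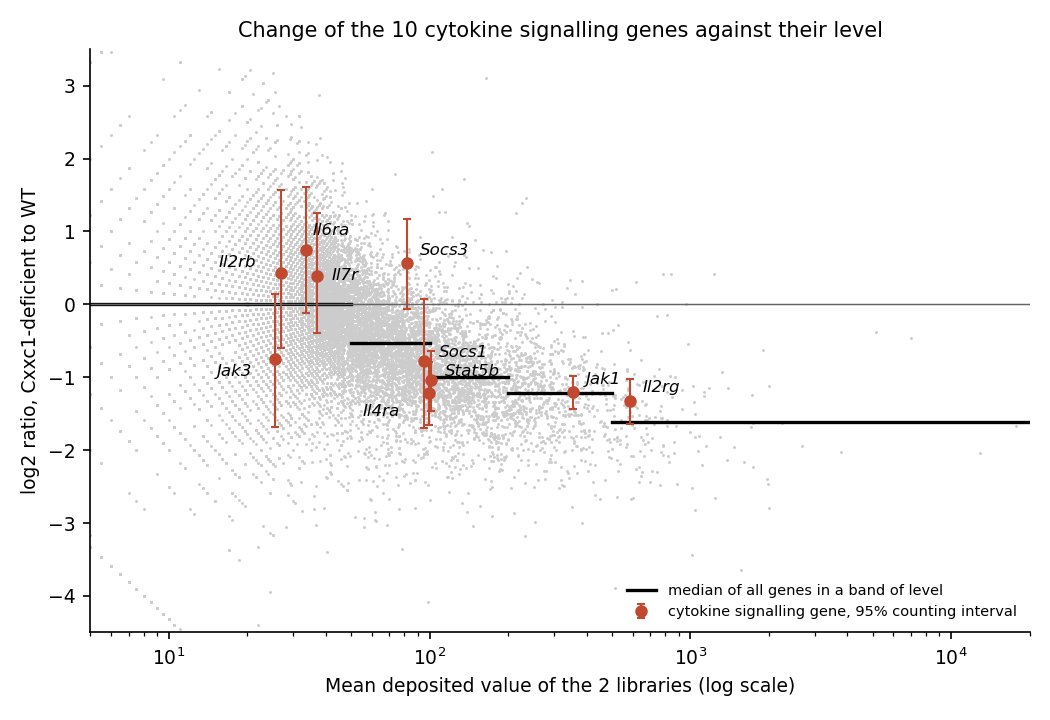
Log2 ratio of *Cxxc1*-deficient to WT against the mean of the 2 libraries (log axis) for all genes (grey), the median of each band of level (black lines) and the 10 cytokine signalling genes with their 95% counting intervals (red); genes beyond the axes are not drawn. *Jak1* and *Stat5b* lie close to the line of their band and *Il2rg* above it with an interval that reaches it. *Socs3*, at 0.57, lies above a band median of -0.53.

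The promoters of 9 of the 10 genes were matched by symbol in RefSeq (build GRCm38.p6), and *Il2rb* was not matched. CXXC1 binds unmethylated CG dinucleotides, so the 250 bases before the start of each gene were read for them. In the study, CXXC1 signal in DP cells was enriched at the centre of CpG islands, regions rich in CG. Few of its binding sites overlapped such islands, though. A CXXC1 form mutated to lose DNA binding still let deficient thymocytes reach the DP stage in culture. Methylation and CXXC1 binding of the windows were not read here. The windows of *Il2rg* and *Jak1*, the most abundant pair, and of *Socs1* and *Socs3*, the inhibitors, are printed 5′ to 3′ on the strand of the gene, with each CG in capitals. They lie on the minus strand at chrX:101268256-101268505, chr4:101265224-101265473, chr16:10785537-10785786 and chr11:117969367-117969616 of GRCm38.p6.
Il2rg: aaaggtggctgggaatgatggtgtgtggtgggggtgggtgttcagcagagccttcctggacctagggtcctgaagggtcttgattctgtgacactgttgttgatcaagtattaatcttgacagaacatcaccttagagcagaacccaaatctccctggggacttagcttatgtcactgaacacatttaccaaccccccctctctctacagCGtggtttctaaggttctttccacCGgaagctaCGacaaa
Jak1: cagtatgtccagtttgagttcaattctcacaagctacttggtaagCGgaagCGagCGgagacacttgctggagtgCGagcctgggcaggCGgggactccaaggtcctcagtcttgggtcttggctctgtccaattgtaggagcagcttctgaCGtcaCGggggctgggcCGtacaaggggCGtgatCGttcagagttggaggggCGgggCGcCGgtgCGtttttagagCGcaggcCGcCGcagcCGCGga
Socs1: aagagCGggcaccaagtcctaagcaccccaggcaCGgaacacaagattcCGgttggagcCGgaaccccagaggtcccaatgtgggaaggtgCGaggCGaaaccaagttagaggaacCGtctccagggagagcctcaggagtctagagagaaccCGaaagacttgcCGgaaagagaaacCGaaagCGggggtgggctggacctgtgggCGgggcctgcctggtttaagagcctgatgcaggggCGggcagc
Socs3: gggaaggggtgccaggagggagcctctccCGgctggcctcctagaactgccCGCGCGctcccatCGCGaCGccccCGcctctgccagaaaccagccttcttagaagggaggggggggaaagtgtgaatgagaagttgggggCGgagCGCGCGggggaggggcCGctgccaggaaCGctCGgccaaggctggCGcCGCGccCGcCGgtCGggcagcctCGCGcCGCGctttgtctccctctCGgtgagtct
The *Il2rg* window held 3 CG, that of *Jak1* 19, that of *Socs1* 13 and that of *Socs3* 26, against a median of 6 over the 32851 windows of the table. The *Il7r* window held 1, that of *Jak3* 8, that of *Il4ra* 17, that of *Il6ra* 18 and the windows of *Stat5b* 40 and 5. Across all genes whose mean was 100 or more, the median log2 ratio was -1.03 for the 125 genes with up to 5 CG, -1.06 for the 858 with 6 to 20, and -1.10 for the 934 with more. Across all genes above 0 that had a window, it was 0.04, -0.27 and -0.44 in the same order, over 4807, 6469 and 3834 genes.

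The same windows were searched for TTCNNNGAA, the palindrome that STAT proteins bind, which reads alike on both strands. It was found once in the *Socs3* window, as TTCTTAGAA starting 154 bases before the start, and once in that of *Il7r*, as TTCAGGGAA starting 142 bases before it. The other 7 matched genes had none in these windows. Of all windows, 7.02% held it. A match describes the letters and not binding.

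*Il2rg* encodes the common gamma chain, the subunit shared by the receptors of several interleukins, among them interleukin-7 and interleukin-4. Its value was 840 (WT) and 336 (*Cxxc1*-deficient). The deficient value was 2.50-fold lower (interval 2.03 to 3.11), on about 346 and 119 reads. The difference was smaller than that of the middle gene of this level, since the median log2 ratio of the 164 genes whose mean was 500 or more was -1.61 and that of *Il2rg* was -1.32. However, the log2 interval of *Il2rg*, from -1.64 to -1.02, took in that median. *Il2rg* is on the X chromosome of mm9 (chrX:98459717-98463594, minus strand). Among genes with a mean of 500 or more, the median log2 ratio was -1.46 for the 11 on the X chromosome and -1.61 for the 149 on autosomes. Among genes with a mean of 100 or more it was -1.24 for 99 on the X chromosome and -1.09 for 2241 on autosomes, and the part that sex had in the value of *Il2rg* was not tested.

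*Il4ra* encodes the ligand-binding chain that pairs with the common gamma chain for interleukin-4. It is on chromosome 7 (chr7:132695785-132722986, plus strand) and had 139 (WT) and 60 (*Cxxc1*-deficient). The deficient value was 2.32-fold lower (interval 1.74 to 3.14). In *Cxxc1*-deficient cells it was just above the limit of silent genes, at or above 96.7% of the olfactory receptor genes. Its mean of 99.5 puts it at the top of the band from 50 to 100, in which 11.4% of genes had a ratio as low or lower, whereas the next band, from 100 to 200, had a median log2 ratio of -1, nearer to its -1.21. The level of *Il4ra* relative to *Il2rg* was 0.165 (WT) and 0.179 (*Cxxc1*-deficient). The change in that proportion was 1.08, with an interval from 0.745 to 1.56, so a difference in ratio between the chains was not detectable at this depth.

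*Il7r* encodes the interleukin-7 receptor chain that thymocytes switch off on entering the DP stage. It is on chromosome 15 (chr15:9435916-9459631, minus strand) and had 32 (WT) and 42 (*Cxxc1*-deficient). In WT 69.7% of the olfactory receptor genes had a value as low or lower, and in *Cxxc1*-deficient cells 81.5% did. Its ratio as deposited was 1.31, with an interval from 0.761 to 2.40 on approximately 25 and 29 reads. On that scale neither expression above silent genes nor a difference was detectable. With the same estimated reads on genes the ratio was 2.19. *Il2rg* exceeded *Il7r* 26.2-fold in WT and 8-fold in *Cxxc1*-deficient cells. The proportion of *Il7r* to *Il2rg* was thus 3.28 times as high in *Cxxc1*-deficient cells, with an interval from 1.82 to 6.25, a value that no scaling of the libraries can change but whose *Il7r* part lay at the level of silent genes. Within the pair, the interval of *Il2rg* alone left out 1, while that of *Il7r* held it.

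*Il6ra*, the interleukin-6 receptor chain that works with gp130, is on chromosome 3 (chr3:89673246-89717084, minus strand). It had 25 (WT) and 42 (*Cxxc1*-deficient), and the ratio of 1.68 had an interval of 0.918 to 3.04. *Il2rb*, the beta chain of the interleukin-2 and interleukin-15 receptors, is on chromosome 15 (chr15:78310983-78325496, minus strand). It had 23 and 31, and the ratio of 1.35 had an interval of 0.662 to 2.97. Both genes were in the silent range in both libraries. Of all genes with a mean from 20 to 50, 48.6% had a higher value in *Cxxc1*-deficient cells. A ratio at least as high as that of *Il7r* was found for 24.3% of them. For *Il2rb* that share was 22% and for *Il6ra* 9.91%, and the interval of each of these genes held 1.

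*Jak1*, the kinase that is bound by the cytokine-specific chains such as those of interleukin-7 and interleukin-4, is on chromosome 4 (chr4:100824972-100937887, minus strand). It had 494 (WT) and 215 (*Cxxc1*-deficient). The 2.30-fold lower value (interval 1.97 to 2.70) rests on about 598 and 224 reads, the most of the 10 genes. Its log2 ratio of -1.20 stood next to the median of -1.22 over the 703 genes with a mean from 200 to 500, of which 51.4% had a ratio as low or lower. *Jak1* was thus at the middle of the genes of its level.

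*Jak3*, the kinase that binds the common gamma chain, is on chromosome 8 (chr8:74200195-74214474, plus strand) and was in the silent range in both libraries, with 32 (WT) and 19 (*Cxxc1*-deficient). Its ratio of 0.594 had an interval from 0.312 to 1.10, and its direction turned with the medians of well-expressed genes (mean of 100 or more) set equal (ratio 1.18). *Jak1* exceeded *Jak3* 15.4-fold in WT and 11.3-fold in *Cxxc1*-deficient cells. The proportion of *Jak3* to *Jak1* was 1.36 times as high in *Cxxc1*-deficient cells, with an interval from 0.703 to 2.60, so a difference was not detectable. Of the chains and kinases that interleukin-7 uses, *Il2rg* and *Jak1* were abundant in both libraries, whereas *Il7r* and *Jak3* were not above silent genes.

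*Stat5b*, one of the paired genes for STAT5, the main STAT downstream of interleukin-7 and interleukin-2, is on chromosome 11 (chr11:100642045-100712038, minus strand). Its value was 136 (WT) and 66 (*Cxxc1*-deficient). This was 2.06-fold lower (interval 1.56 to 2.75). The log2 ratio of -1.04 was close to the median of -1 of the 1605 genes with a mean from 100 to 200. The proportion of *Stat5b* to *Jak1* was 0.275 (WT) and 0.307 (*Cxxc1*-deficient), a change of 1.12 times with an interval from 0.801 to 1.54. Its neighbour on chromosome 11, *Stat5a*, had 75 and 39, and the ratio of 0.520 had an interval of 0.337 to 0.801. The coding parts of *Stat5a* and *Stat5b* are alike, and uniquely mapped reads leave such stretches undercounted, so the levels of both are uncertain.

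The deposited values of the inhibitors differed in opposite directions, although on that scale neither interval alone left out 1. *Socs1*, which blocks JAK activity and is known for holding back cytokine responses in DP cells, is on chromosome 16 (chr16:10783901-10785629, minus strand). It had 120 (WT) and 70 (*Cxxc1*-deficient), with a ratio of 0.583 and an interval from 0.310 to 1.05 on approximately 36 and 18 reads. Its value was lower as deposited and higher (ratio 1.16) with the medians of well-expressed genes set equal. *Socs3*, which binds gp130 and related receptor chains, is on chromosome 11 (chr11:117827393-117831361, minus strand). It had 66 (WT) and 98 (*Cxxc1*-deficient), and the ratio of 1.48 had an interval of 0.958 to 2.25 on approximately 42 and 53 reads.

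The proportion of *Socs3* to *Socs1* does not depend on the scaling of the libraries. It was 0.550 (WT) and 1.40 (*Cxxc1*-deficient), so *Socs1* exceeded *Socs3* in the WT library and *Socs3* exceeded *Socs1* in the *Cxxc1*-deficient one. The proportion was 2.55 times as high in *Cxxc1*-deficient cells, with an interval from 1.19 to 5.40. That interval rests on the longest annotated *Socs3* transcript. With the shortest, an alternative chosen after seeing the data, it ran from 0.467 to 14 and held 1. Among the 3657 genes with a mean from 50 to 100, 2.98% had a ratio at least as high as that of *Socs3*. Among the 3688 genes above the silent-gene level in both libraries, 10.2% had a higher value in *Cxxc1*-deficient cells and 0.922% a ratio as high or higher. *Socs3* was the only gene of the 6 above the silent-gene level with a higher value as deposited. Its WT value had an interval of 48.1 to 90.2, which took in the limit of 54. That of *Socs1* in *Cxxc1*-deficient cells, 41.1 to 110, took in the limit of 57. The pair was chosen for comparison after its values were seen.

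The other genes of the pathway were taken from 6 lists by role with 85 different genes, of which 45 were above the silent-gene level in at least 1 library. As deposited, 36 of the 45 were lower and 9 higher in *Cxxc1*-deficient cells, where 88.6% of all genes above that level were lower. Of the 9 higher, 4 were above that level only in the deficient library, and of the 36 lower, 10 only in WT. Of the 45, 18 were at least 2-fold lower and 3 were 2-fold higher or more. Of the 6629 genes of the whole table above that level in at least 1 library, 35.6% were at least 2-fold lower, and 1.64% were 2-fold higher or more. The median log2 ratio was -0.74 over the 45 genes and -0.78 over those 6629. With the medians of well-expressed genes set equal, 18 of the 45 were lower and 27 higher, and 35.6% of all genes above the silent-gene level were lower.

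**Figure D3:**
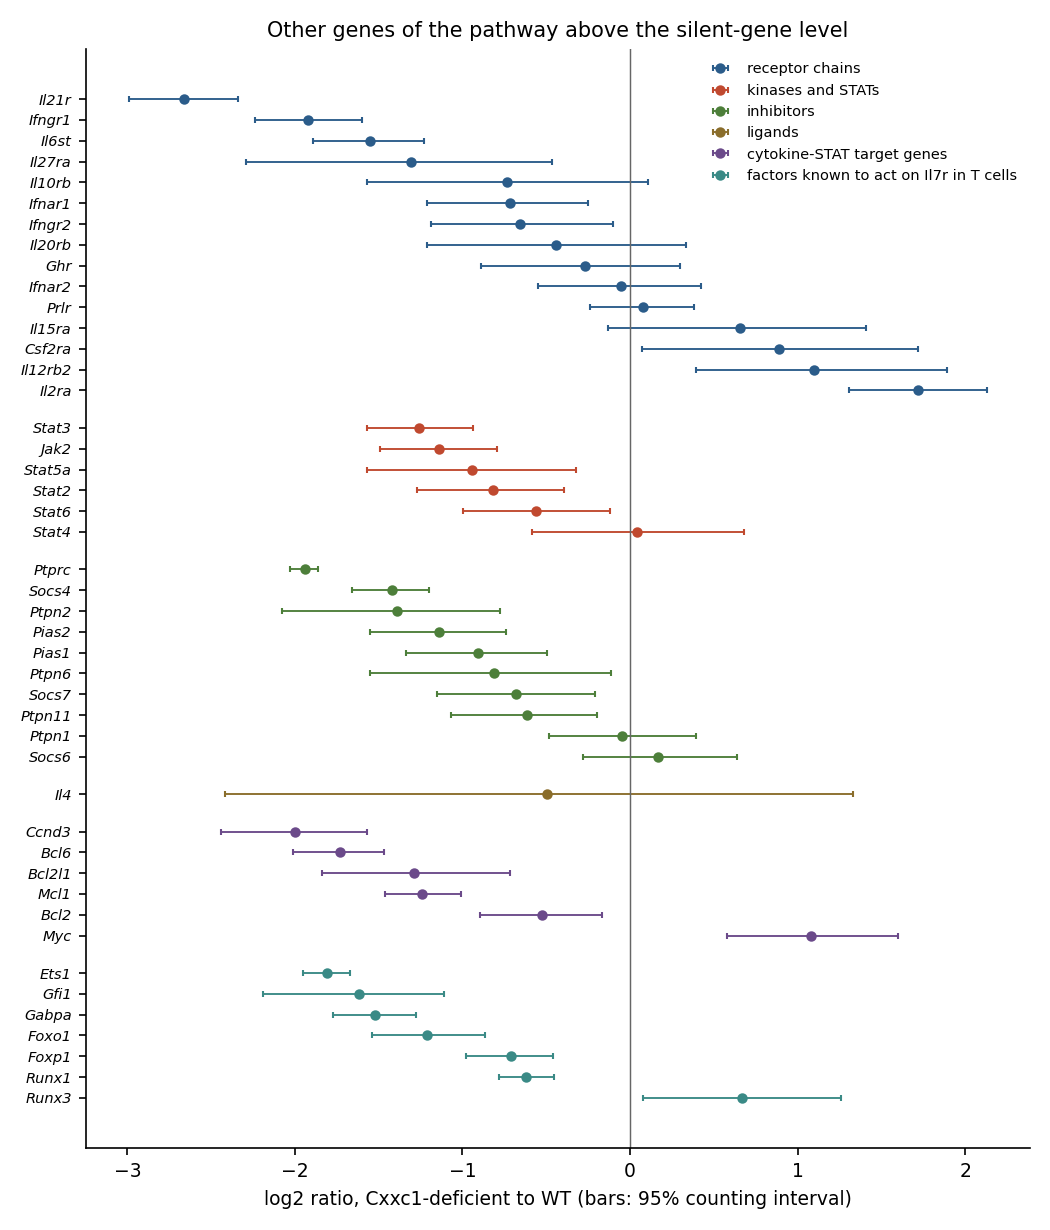
Log2 ratio of *Cxxc1*-deficient to WT, with 95% counting intervals, of the 45 other pathway genes above the silent-gene level in at least 1 library, grouped by role. Most points lie left of 0, from -2.66 for *Il21r*, and *Il2ra*, *Il12rb2*, *Csf2ra*, *Myc* and *Runx3* have intervals to its right.

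Among 32 other receptor chains, 15 were above the silent-gene level, with 10 lower and 5 higher as deposited. Of all genes above that level, 88.6% were lower. *Il21r*, the partner of the common gamma chain for interleukin-21, was the most abundant in WT, with 1038, and had 164 in *Cxxc1*-deficient cells. Its ratio of 0.158, with an interval from 0.126 to 0.197, was lower than that of *Il2rg* and among the lowest of its level, where 4.27% of genes were as low or lower. *Ifngr1*, the interferon-gamma receptor chain, had 846 and 224, a ratio of 0.265. *Il6st*, which encodes gp130, had 270 and 92, and the ratio of 0.341 had an interval of 0.271 to 0.426. The chain that pairs with *Il6ra* was thus well above silent genes while *Il6ra* itself was not.

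*Il2ra*, the alpha chain of the interleukin-2 receptor and a marker of earlier double-negative (DN) thymocytes, had a higher value. It had 63 (WT) and 207 (*Cxxc1*-deficient), and the ratio of 3.29 had an interval of 2.48 to 4.38. Among genes with a mean from 100 to 200, 99.9% had a ratio as low or lower. *Il12rb2* had 34 and 73 and *Csf2ra* 48 and 89, both with intervals above 1 but above the silent-gene level only in the deficient library, so they were counted because they were high there. Among the other DN markers, *Notch3* had 56 and 167 and *Cd44* 35 and 58, both with intervals above 1. *Hes1* had 28 and 52, with an interval of 0.792 to 4.57, *Kit* 35 and 36, and *Bcl11a* 74 and 64. The summed level of the 6 DN markers, *Il2ra* included, was 291 (WT) and 584 (*Cxxc1*-deficient), while that of the 12 DP markers was 42670 and 11725. The part of DN cells in the values of *Il2ra* and *Socs3* was not tested.

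Few markers of other cells of the thymus were above silent genes. Above the silent-gene level in at least 1 library were 1 of 5 markers of mature single-positive cells (*Slfn2*), 1 of 6 of B cells (*Cd79b*), 1 of 8 of macrophages and dendritic cells (*Itgam*, 101 and 107), 0 of 5 of granulocytes, 0 of 6 of NK and innate lymphoid cells, 0 of 6 of erythroid cells and 2 of 8 of thymic epithelium and stroma (*Ccl25* and *Pecam1*). The summed levels in WT and *Cxxc1*-deficient cells were 305 and 182 for the mature list, of which *Slfn2* alone had 195 and 42. The other mature markers were in the silent range, each with a higher value in *Cxxc1*-deficient cells. The sums were 183 and 149 for B cells, 306 and 294 for macrophages and dendritic cells, and 137 and 153 for granulocytes. They were 161 and 150 for NK and innate lymphoid cells, 75 and 65 for erythroid cells, and 327 and 233 for epithelium and stroma. *Csf1r*, *Lyz2* and *Ncr1* had at most 35, within the silent range, and the haemoglobin genes *Hba-a1*, *Hba-a2* and *Hbb-b2* were listed at 0 in both libraries. Haemoglobin genes have near copies, which unique mapping undercounts, so these zeros cannot show that erythroid cells were absent.

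Of the other kinases and STATs, 5 of the 6 above the silent-gene level were lower as deposited and 2 of them at least 2-fold, beside 88.6% and 35.6% of all genes above that level. *Jak2*, the kinase of the interferon-gamma and gp130 receptors, had 200 (WT) and 91 (*Cxxc1*-deficient), a ratio of 0.455 close to the 0.435 of *Jak1*. *Stat3*, the main STAT of gp130, had 215 and 90, and the ratio of 0.419 had an interval of 0.337 to 0.521. *Stat6*, which acts below *Il4ra*, had 130 and 88, a ratio of 0.677. *Stat4* had 64 and 66 and *Tyk2*, with 35 and 42, was in the silent range. The direction held for *Jak2* and *Stat3* under each of the 5 other scalings, whereas with the medians of well-expressed genes set equal only these 2 of the 6 were lower.

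Among 16 other inhibitors, 10 were above the silent-gene level, with 9 lower and 4 at least 2-fold lower as deposited. Of all genes above that level, 88.6% were lower and 35.6% at least 2-fold lower. With the medians of well-expressed genes set equal, 4 of the 10 were lower, as were 35.6% of all genes above that level. *Ptprc*, which encodes the phosphatase CD45, had 4239 and 1101. *Socs4* had 386 (WT) and 144 (*Cxxc1*-deficient), a ratio of 0.373, and was the most abundant *Socs* gene of both libraries. *Ptpn2*, a phosphatase of JAKs and STATs, had 131 and 50, and the ratio of 0.382 had an interval of 0.237 to 0.584. *Socs6* had 56 and 63, with an interval from 0.823 to 1.56. *Cish* and *Socs2*, the *Socs* family genes best known as STAT5 targets, were in the silent range, with 21 and 30 for *Cish* and 32 and 17 for *Socs2*.

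Among 12 genes known as targets of cytokine-activated STATs, 6 were above the silent-gene level. Of these 6, 5 were lower as deposited and 4 were at least 2-fold lower. The intervals of these 5 were below 1, which held for 22.1% of all genes with a known length, at any level. Of all genes above that level, 88.6% were lower and 35.6% at least 2-fold lower. *Mcl1*, which encodes a survival protein, had 722 and 306, a ratio of 0.424. *Bcl2l1*, which encodes BCL-XL, had 178 and 73, and the ratio of 0.410 had an interval of 0.279 to 0.608. *Bcl2* had 98 and 68, a ratio of 0.694 as deposited and above 1 under 3 of the 5 other scalings. *Ccnd3*, a cyclin of proliferating thymocytes, had 488 and 122, and *Bcl6* 585 and 176. *Myc* was higher, with 91 and 192, and the ratio of 2.11 had an interval of 1.5 to 3.03. *Pim1*, with 32 and 30, and *Cish* were in the silent range, as was *Pim2* with 14 and 5.

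Of the 7 factors known to act on *Il7r* in T cells, 6 were above the silent-gene level in WT and 7 in *Cxxc1*-deficient cells. *Ets1* had 1677 (WT) and 479 (*Cxxc1*-deficient), *Gabpa* 489 and 171, *Runx1* 490 and 319, *Foxp1* 208 and 127, *Foxo1* 199 and 86, and *Gfi1*, a repressor of *Il7r*, 194 and 63. These 6 were lower as deposited, as were 88.6% of all genes above the silent-gene level. Their intervals were below 1, which held for 22.1% of all genes with a known length, at any level. *Foxp1* and *Runx1* turned to higher values under 2 of the 5 other scalings. *Runx3* had 46, within the silent range, and 73, with an interval from 1.05 to 2.39. Of the 12 cytokine ligand genes, 1 was above the silent-gene level, *Il4*, with 55 and 39 on approximately 8 and 5 reads, and *Il7* had 38 and 23.

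The ratios depend on how the libraries are scaled to each other. In 5 other scalings the *Cxxc1*-deficient values were multiplied by 1.03 to 2, of which the scaling to the same estimated reads on genes, by 1.67, was added after the data were seen. They took the median ratio over all genes, on the log2 scale, from -0.20 to between -0.16 and 0.80. Since each factor is above 1, a gene with a higher value as deposited could not turn. Under each of them *Il2rg*, *Il4ra*, *Jak1* and *Stat5b* were lower. *Jak3* and *Socs1* turned to higher under 1, the medians of well-expressed genes set equal, which left 4 of the 10 lower and 6 higher. Under that scaling the median log2 ratio of all genes was 0.80, and 35.6% of all genes above the silent-gene level were lower. The ratios were then 0.798 for *Il2rg*, 0.861 for *Il4ra*, 0.868 for *Jak1* and 0.968 for *Stat5b*. Their intervals, which shift by the same factor, were not recomputed. With the same estimated reads on genes, the ratios were 0.668 for *Il2rg*, 0.721 for *Il4ra*, 0.727 for *Jak1*, 0.811 for *Stat5b*, 0.975 for *Socs1* and 2.48 for *Socs3*. None of the 10 genes was then at least 2-fold lower, against 5.07% of all genes, and 4 were at least 2-fold higher, against 24.4%.

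**Figure D4:**
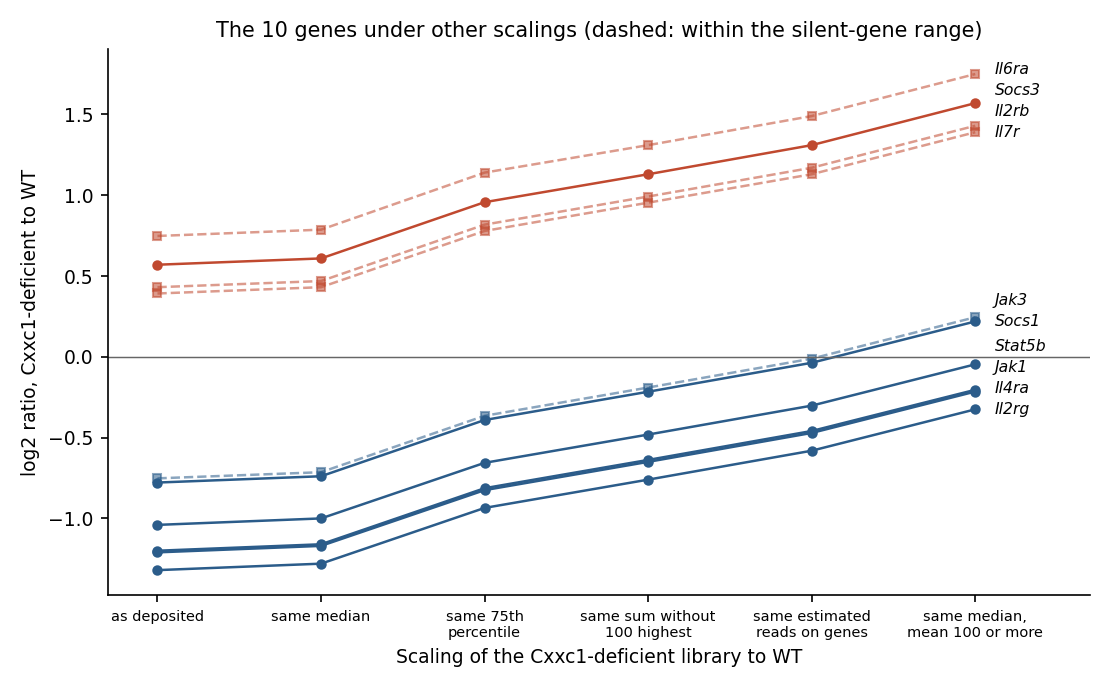
Log2 ratio of the 10 genes as deposited and under 5 other scalings of the *Cxxc1*-deficient library, in the order of the factor applied; solid lines are genes above the silent-gene level and dashed lines genes within it. All lines shift by the same amount, so *Socs3* keeps its distance from *Socs1* throughout, and *Jak3* and *Socs1* end above 0 at the largest factor.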

How the data were processed

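RNA-seq of 1 WT and 1 *Cxxc1*-deficient DP thymocyte library was used, grouped by sample title. Reads of 50 bp (HiSeq 2500, CASAVA 1.8.2) were mapped to mm9, and uniquely mapped reads were analysed with Partek Genomic Suite 6.6. The submitters' processing notes also name Bowtie 1.0.1. The authors deposited a score for each gene, namely normalized expression rounded to whole numbers, whose unit is not given in the sources used here. Unique mapping undercounts genes with near copies.

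The value of 1 read was estimated from genes under 1000 bases with 1 annotated transcript in GENCODE vM1 (NCBIM37, the build of mm9). Whole reads, within the rounding of the values, were found for 312 of 502 such values in WT and 738 of 1010 in *Cxxc1*-deficient cells, against 14.1% and 15.6% by chance. This sets a value times length of 4056 and 4704 for 1 read, and reads were then taken with the longest transcript of each of 19090 matched genes. The transcript lengths used by the authors are not named, so reads and intervals are approximate.

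Ratios were taken between values raised to at least 1, with a threshold of 2-fold. With 1 library per genotype no test was run. Proportions between genes have exact conditional 95% intervals. The 10 genes and all lists were chosen with earlier results of these data known. Genes named were the 10, the targeted gene, markers, pathway genes above the silent-gene level and the most abundant of each list. Any further gene named, and the pairs set in proportion, were picked with their values in view. Some genes of the lists are not reported here and were left out of the counts. Scripts were checked on simulated data. Tools were Python 3.11.15 with scipy 1.17.1, pandas 2.3.3, numpy 2.4.6 and, for figures, matplotlib 3.10.9.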

Additional observations from a re-analysis of the deposited data

How the results depend on the processing

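The count of the 10 genes at least 2-fold lower was 4 as deposited. It was 0 at an equal 75th percentile, at an equal sum without the 100 highest genes, at an equal median of the genes whose mean is 100 or more (the largest factor), at equal estimated reads on genes, and with a threshold of 3-fold. Of all genes, 8.86%, 6.54%, 3.51% and 5.07% were at least 2-fold lower under these 4 scalings. The count at least 2-fold higher, 0 as deposited, was 1 at an equal 75th percentile, 2 at an equal sum without the 100 highest genes, 4 at the largest factor, 4 at equal estimated reads on genes, 2 after the median of olfactory receptor genes was subtracted and 1 at 1.5-fold. Of all genes, 12%, 17.2%, 37.2% and 24.4% were at least 2-fold higher in the first 4 of these settings. These changes follow from the factor, threshold or subtraction applied. The median log2 ratio, -0.77 as deposited, was -0.38, -0.20 and -0.0241 at the equal percentile, sum and estimated reads, -1.20 after the olfactory receptor median was subtracted, -0.62 with a pseudocount of 10 and -1.04 over the 7 of the 10 genes whose mean exceeded the median gene. It reversed to 0.23 at the largest factor, as did *Jak3* (0.25) and *Socs1* (0.22). With the 99th percentile of olfactory receptor genes as the limit of silent genes, 6 genes (WT) and 4 (*Cxxc1*-deficient) were above it, since *Il4ra*, at 60, and *Stat5b*, at 66, were not. With the shortest annotated transcripts as lengths, 3 of the 10 intervals left out 1, against 4, and that of *Stat5b* ran from 0.206 to 1.05. The interval of the proportion of *Socs3* to *Socs1* then held 1. Depth limits *Socs1* and the genes in the silent range most, with 15 to 36 reads in WT. No paired analysis was possible because there is a single library for each genotype.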
